A study of Mus musculus with 22 samples.

Results

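NRF2 redox response genes are 10 mouse genes that were measured here in hepatoblastoma tumors driven by YAP1, in livers carrying the hepatocyte-like cells that the study calls hbHep, and in liver of FAH mice. They are Nfe2l2, Keap1, Nqo1, Gclc, Gclm, Slc7a11, Txnrd1, Srxn1, Hmox1 and Osgin1, chosen by symbol. All 10 were found among the 36555 genes of the RNA table, and all 10 passed the filter on low values. NRF2, the protein of Nfe2l2, is a transcription factor that KEAP1 holds in the cytoplasm and hands to a ubiquitin ligase for destruction. Electrophiles and oxidants modify cysteines of KEAP1, after which NRF2 accumulates, pairs with a small MAF protein and binds antioxidant response elements. In liver the pathway is known for raising glutathione synthesis, the thioredoxin system, quinone reduction and haem breakdown, and mutations that activate it occur in human liver cancers.

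RNA came from 4 groups of whole tissue, 14 samples in all. The YAP1on group was 4 tumors from a mouse on doxycycline with the transgene Tg(CAG-rtTA3)4288Slowe on a B6N.FVB(Cg) background, and the day 6 group was 4 tumors from another mouse of that strain, 6 days after YAP1 was turned off by taking doxycycline away. In that strain the CAG promoter, which is active in most cell types, drives the doxycycline-dependent activator rtTA3. The hbHep group was the liver of 3 mice at day 121 (mouse 1), day 114 (mouse 2) and day 117 (mouse 3), each with 2 technical libraries. These mice, like the 3 FAH liver mice that were kept on the drug NTBC, carry FAH Delta Exon 5, a deletion in the last enzyme of tyrosine breakdown. How many cells of each hbHep liver belonged to the host, and whether those mice received NTBC, is not given in the sources used here. Each tumor group came from 1 mouse by the labels' codes, so the mouse and the state of YAP1 cannot be told apart, and strain cannot be told apart from group between tumors and the other livers. ATAC-seq, which maps open chromatin by transposase cutting, had 1 library each of YAP1on, of days 14, 33 and 64 after YAP1 was turned off, and of liver labeled WT.

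The promoters of 4 members are shown because they carry matches to motifs named below and because their genes bear the results. They run from 250 bases before to 50 bases after the gene start, 5′ to 3′ on the strand of the gene, from RefSeq on GRCm38.p6. Capitals mark matches to TGACNNNGC, the core of the antioxidant response element, to TGACTCA, the AP-1 site, or to TGATGCAA, the amino acid response element bound by ATF4, each searched on both strands, with no base shared between the matches printed. The last of these was searched only after the Slc7a11 promoter had been read. Slc7a11 is shown at chr3:50443564-50443863 (minus strand), Srxn1 at chr2:152105274-152105573 (plus strand), Gclm at chr3:122245307-122245606 (plus strand) and Txnrd1, from one of its starts, at chr10:82858956-82859255 (plus strand).
Slc7a11: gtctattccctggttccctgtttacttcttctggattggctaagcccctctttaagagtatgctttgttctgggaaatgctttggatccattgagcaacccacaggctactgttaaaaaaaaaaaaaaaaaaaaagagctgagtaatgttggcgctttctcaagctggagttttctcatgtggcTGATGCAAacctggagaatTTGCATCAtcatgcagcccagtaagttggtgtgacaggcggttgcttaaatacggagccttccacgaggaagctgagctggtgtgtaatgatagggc
Srxn1: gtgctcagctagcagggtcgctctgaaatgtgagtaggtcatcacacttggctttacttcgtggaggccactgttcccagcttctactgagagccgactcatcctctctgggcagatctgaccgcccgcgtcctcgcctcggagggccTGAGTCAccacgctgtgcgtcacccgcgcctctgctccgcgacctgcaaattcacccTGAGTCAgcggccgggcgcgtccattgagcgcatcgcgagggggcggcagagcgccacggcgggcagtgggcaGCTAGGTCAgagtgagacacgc
Gclm: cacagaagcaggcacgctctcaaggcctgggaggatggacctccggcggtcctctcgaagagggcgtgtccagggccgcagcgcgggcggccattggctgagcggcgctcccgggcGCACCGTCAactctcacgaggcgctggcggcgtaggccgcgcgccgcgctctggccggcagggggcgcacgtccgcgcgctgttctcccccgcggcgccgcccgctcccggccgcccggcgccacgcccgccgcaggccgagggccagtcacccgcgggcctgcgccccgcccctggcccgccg
Txnrd1: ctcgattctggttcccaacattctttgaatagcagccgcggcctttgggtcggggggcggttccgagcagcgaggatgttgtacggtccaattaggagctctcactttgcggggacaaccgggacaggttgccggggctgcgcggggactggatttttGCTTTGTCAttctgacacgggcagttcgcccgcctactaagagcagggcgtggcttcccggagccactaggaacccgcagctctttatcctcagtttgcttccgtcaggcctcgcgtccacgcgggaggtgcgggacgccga

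The promoter table held 10 starts of 8 members and none of Gclc or Hmox1. TGACNNNGC occurred at 4 of the 10 starts, those of Nfe2l2, Srxn1, Gclm and Txnrd1, against 13.0% of 21263 protein-coding starts. It began 240 bases before the start of Nfe2l2, 134 before that of Gclm and 92 before that of Txnrd1, and lay 28 bases after that of Srxn1. TGACTCA occurred at 2 starts, against 4.66% of all. Srxn1 held it at 102 and 45 bases before its start, and Osgin1 held it 97 bases before. TGATGCAA occurred only at Slc7a11 among these 10 starts, against 0.865% of all, once on each strand, at 66 and 47 bases before the start. These letters describe the windows and do not show binding.

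RNA values are given as abundance, the authors' scaled reads per base after rescaling between samples. Library totals were 16.0 to 42.1 M of these units, with M for the prefix mega, and the relative depth read from the steps of low values ran from 52.6 to 100% of the deepest library, with the hbHep libraries at 52.6 to 67.5%. A difference was called at an adjusted p under 0.05 in limma over 17953 genes. In bulk tissue, fewer cells of a type and less RNA per cell cannot be told apart. The 6 hepatocyte markers, each at 10 or more in some sample of every group, summed to 229200 to 409100 in YAP1on tumors, 535400 to 722100 at day 6 and 517700 to 695700 in hbHep, and FAH liver reached 1161000 to 1283000. The 10 macrophage markers summed to 21300 to 31720, 12480 to 15830, 7103 to 19350 and 3859 to 7009, taken in the same order. Single hepatocyte markers did not all follow their sum. Alb, Apoa1, Ttr and Cps1 were lower in every hbHep liver than in every FAH liver, while Apob and Tat overlapped. Alb overlapped between YAP1on and day 6 tumors. Cps1 was lower in every hbHep liver (35900 to 69620) than in every day 6 tumor (106000 to 167600). The neutrophil markers Ly6g and Retnlg were under 10 in every hbHep and FAH liver sample. The part of cell composition in the results below was not tested.

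Nfe2l2 (ENSMUSG00000015839, chromosome 2, 75675513 to 75704663), the gene of NRF2 itself, had a narrow range of levels. Its abundance was 2427, 3058, 3116 and 3204 in the YAP1on tumors and 2708, 2530, 2827 and 2468 in the day 6 tumors. It was 2518, 2384 and 2610 in hbHep mice 1, 2 and 3, and 2025, 1645 and 1747 in FAH liver. FAH liver was lowest, with no overlap with another group, while the ranges of the other 3 groups overlapped in abundance. Nfe2l2 was called higher than in FAH liver in hbHep (log2 difference 0.48 ± 0.13 SE, adjusted p = 0.00843, limma), in YAP1on tumors (0.71 ± 0.12, adjusted p = 8.09e-05) and at day 6 (0.55 ± 0.12, adjusted p = 0.000945). Quantile normalization moved the last pair to 1.37 and 0.92. It also called differences among the other 3 groups, with hbHep −0.74 from YAP1on tumors (adjusted p = 1.21e-05), day 6 −0.44 from YAP1on tumors (adjusted p = 0.00161) and hbHep −0.30 from day 6 (adjusted p = 0.0173). Without YAP1on tumor 1 hbHep was −0.32 from YAP1on tumors (adjusted p = 0.0201).

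Keap1 (ENSMUSG00000003308, chromosome 9, 21229730 to 21239332), which encodes the sensor that marks NRF2 for destruction, ran the other way. It stood at 979.8, 1157, 1357 and 1316 in YAP1on tumors, at 1625, 1790, 1534 and 1553 in day 6 tumors, at 2563, 2475 and 2846 in hbHep, and at 3352, 2584 and 2805 in FAH liver. The tumor groups did not overlap each other or the livers, and hbHep overlapped FAH liver. Keap1 rose from YAP1on to day 6 by 0.44 ± 0.12 on the log2 scale (adjusted p = 0.0137, limma) and was 1.14 ± 0.13 higher in hbHep than in YAP1on tumors (adjusted p = 3.37e-06). Leaving out day 6 tumor 2 ended the day 6 call (0.40, adjusted p = 0.0509). Against FAH liver hbHep differed by −0.14 ± 0.14 (adjusted p = 0.455).

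**Figure D1:**
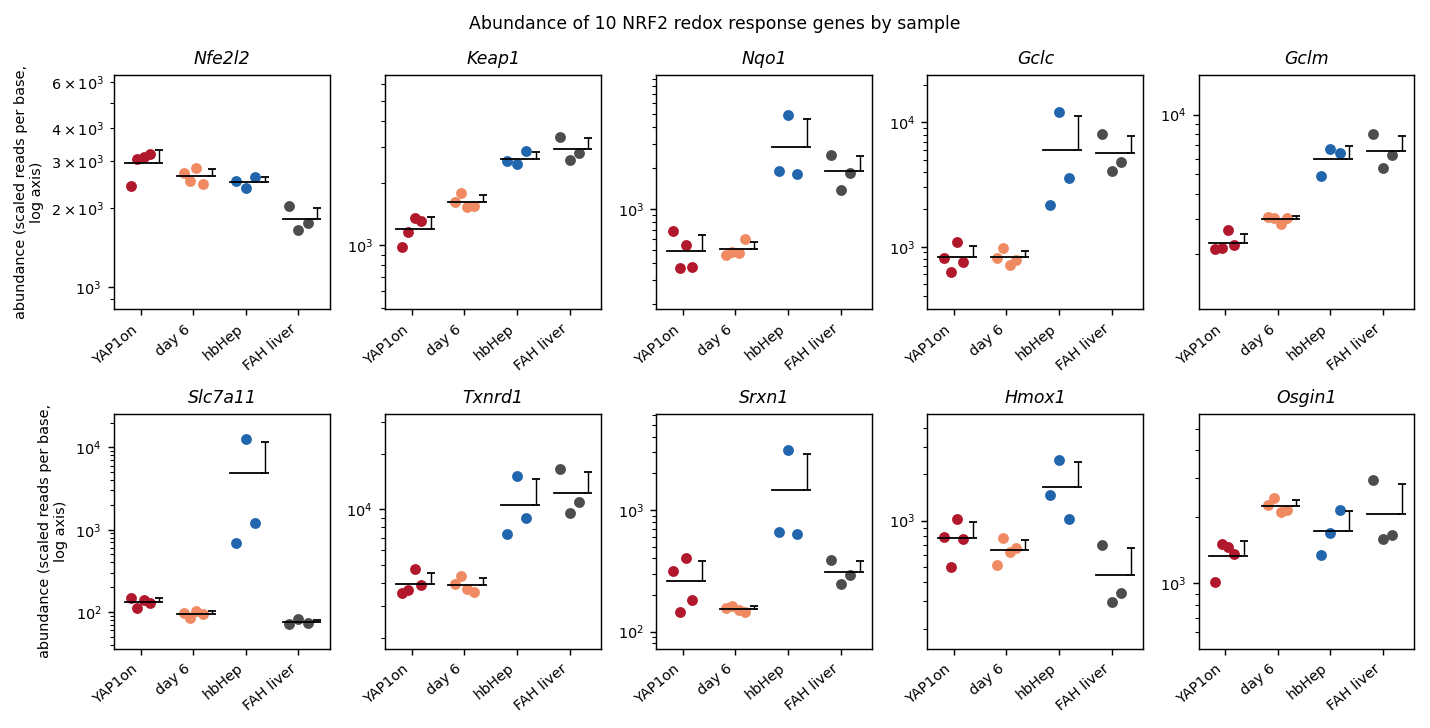
Abundance of the 10 genes (scaled reads per base, log axis) in each sample of the 4 RNA groups, with 1 point per tumor or mouse, a line at the group mean and a bar that reaches 1 SD above it (the lower arm is not drawn, since it passes 0 for Slc7a11 in hbHep). In hbHep, 1 of the 3 points, mouse 2, stands above the other mice for Slc7a11 (12780 against 681.9 and 1193), Gclc, Srxn1 and Nqo1, while Nfe2l2 and Keap1 lie close together.

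Slc7a11 (ENSMUSG00000027737, chromosome 3, 50364936 to 50499087) encodes the cystine importer that supplies cysteine for glutathione, and it had the widest range of the members. It was 148.2, 112.6, 141.3 and 129 in YAP1on tumors, 97.41, 84.89, 102.8 and 93.7 at day 6, and 71.8, 81.5 and 72.65 in FAH liver. In hbHep it was 681.9, 12780 and 1193 in mice 1, 2 and 3. Every hbHep mouse lay above every other sample, and mouse 2 lay 10.7-fold above the next mouse. The hbHep mean of 4885 ± 6840 (SD, n = 3) is therefore carried by 1 animal. Slc7a11 was 4.84 ± 0.68 higher on the log2 scale in hbHep than in FAH liver (adjusted p = 5.76e-05, limma) and 4.04 ± 0.64 higher than in YAP1on tumors (adjusted p = 7.37e-05). Without mouse 2 those differences were 3.57 and 2.76, still called (adjusted p = 3.31e-08 and 7.74e-08). Among the other groups no difference was called with all samples. Without mouse 2, YAP1on tumors were called 0.80 above FAH liver (adjusted p = 0.00103) and day 6 tumors 0.48 below YAP1on tumors (log2 difference −0.48, adjusted p = 0.0464). Both were also called when only the groups compared were fitted (adjusted p = 0.00218 and 0.0171).

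Gclc and Gclm encode the catalytic and the modifier subunit of glutamate-cysteine ligase, the enzyme that limits the rate of glutathione synthesis. Gclc (ENSMUSG00000032350, chromosome 9, 77754535 to 77794489) was 810.9, 626.9, 1083 and 756.6 in YAP1on tumors and 808.1, 971.9, 718.6 and 786.9 at day 6. It was 2165, 12160 and 3589 in hbHep mice 1, 2 and 3, against 8096, 4054 and 4833 in FAH liver. The tumors lay below every liver, and hbHep mice fell on both sides of FAH liver, with mice 1 and 3 below all of it and mouse 2 above. Gclc was called 2.50 ± 0.41 higher in hbHep than in YAP1on tumors on the log2 scale (adjusted p = 0.000111, limma), and 2.75 ± 0.41 lower in YAP1on tumors than in FAH liver (log2 difference −2.75, adjusted p = 2.54e-05). The difference between hbHep and FAH liver was −0.25 ± 0.44 (adjusted p = 0.697). Without mouse 2 it was −0.96 and called (adjusted p = 0.0184).

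Gclm (ENSMUSG00000028124, chromosome 3, 122245487 to 122267215) varied less between mice than Gclc. Its abundance was 2096, 2131, 2628 and 2213 in YAP1on tumors, 3037, 3006, 2811 and 3017 at day 6, 4907, 6723 and 6398 in hbHep, and 7943, 5404 and 6233 in FAH liver. The order was YAP1on, then day 6, then both livers, which overlapped. The step to day 6 of 0.39 ± 0.14 on the log2 scale passed narrowly (adjusted p = 0.0467, limma) and lost its call without any single tumor other than YAP1on tumor 3, without hbHep mouse 3 or without FAH liver 3 (adjusted p 0.0524 to 0.115). It was also not called after quantile normalization (0.16, adjusted p = 0.357), with values as deposited (adjusted p = 0.0611), with no filter on low values (adjusted p = 0.077), with the second technical libraries alone (adjusted p = 0.0939) or with a replicate block (adjusted p = 0.0924). The step of 1.40 ± 0.15 from YAP1on tumors to hbHep was called (adjusted p = 1.36e-06), and was 0.92 after quantile normalization (adjusted p = 2.12e-05).

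Txnrd1 (ENSMUSG00000020250, chromosome 10, 82833951 to 82897724), the cytosolic reductase that keeps thioredoxin active, was flat between the tumor groups. YAP1on tumors held 3500, 3630, 4743 and 3877, and day 6 tumors 3927, 4361, 3716 and 3576. hbHep mice held 7362, 15140 and 9029, and FAH liver 16550, 9595 and 10910. Tumors lay below all livers and the livers overlapped. The hbHep level was 1.36 ± 0.22 above YAP1on tumors on the log2 scale (adjusted p = 0.000118, limma; 0.78 after quantile normalization, adjusted p = 0.00546) and differed from FAH liver by −0.26 ± 0.24 (adjusted p = 0.427).

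Srxn1 (ENSMUSG00000032802, chromosome 2, 152105524 to 152111376) encodes sulfiredoxin, which repairs overoxidised peroxiredoxins. It was 313.8, 145.9, 400.9 and 181.6 in YAP1on tumors, 157, 162.6, 149.9 and 144.7 at day 6, and 385.2, 245.7 and 293.1 in FAH liver. hbHep mice held 654.6, 3086 and 638.4, each above every sample of the other groups. Srxn1 was 1.84 ± 0.48 higher in hbHep than in FAH liver on the log2 scale (adjusted p = 0.00713, limma), a call that held without mouse 2 (1.09, adjusted p = 0.0185) and was lost when only those groups were fitted (1.84, adjusted p = 0.055). Against YAP1on tumors the difference was 2.17 ± 0.45 (adjusted p = 0.000768), and 1.43 without mouse 2 (adjusted p = 0.00139). Day 6 and FAH liver differed by −0.98 ± 0.45 (adjusted p = 0.0691), and were called different without hbHep mouse 2 (adjusted p = 0.00596), with only those groups fitted (adjusted p = 0.000443) and with values as deposited (−1.09, adjusted p = 0.0442).

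Nqo1 (ENSMUSG00000003849, chromosome 8, 107388225 to 107403205) encodes a quinone reductase that is a common readout of NRF2 activity. It was 683.1, 364.3, 538.8 and 375.6 in YAP1on tumors, 456.9, 482.8, 474.2 and 597.4 at day 6, 1888, 4866 and 1811 in hbHep and 2500, 1387 and 1829 in FAH liver. All livers exceeded all tumors, and mice 1 and 3 lay within the FAH liver range. Nqo1 was 2.43 ± 0.31 above YAP1on tumors in hbHep on the log2 scale (adjusted p = 9.91e-06, limma) and 0.46 ± 0.33 from FAH liver (adjusted p = 0.297). Without mouse 2 the first was 1.96 (adjusted p = 1.46e-05) and the second 0.00.

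Hmox1 (ENSMUSG00000005413, chromosome 8, 75093618 to 75100593), the inducible haem oxygenase, is also expressed by macrophages that clear red blood cells. Its abundance was 784.7, 500.5, 1022 and 760.1 in YAP1on tumors, 514.8, 767.3, 622.6 and 663.6 at day 6, 1456, 2457 and 1023 in hbHep mice 1, 2 and 3, and 698.4, 296.8 and 342.4 in FAH liver. The hbHep mice were the highest samples, although mouse 3 (1023) barely exceeded the highest YAP1on tumor (1022). Macrophage markers summed to 19350, 8186 and 7103 in the same mice, so mouse 1 had the highest sum and mouse 2 the highest Hmox1. They summed to 21300 to 31720 in YAP1on tumors, to 12480 to 15830 at day 6 and to 3859 to 7009 in FAH liver. Every hbHep mouse and every tumor was thus above every FAH liver for the sum, narrowly in mouse 3. Of single markers, Cd68, Csf1r, Marco and C1qa were higher in every hbHep mouse than in every FAH liver. Adgre1, Clec4f, Timd4, Vsig4 and Lyz2 overlapped between those groups, and Cd163 was lower in every hbHep mouse (128.3 to 482.5 against 541.3 to 819.6). The part of macrophages in the Hmox1 differences was not tested. Hmox1 was 1.89 ± 0.34 above FAH liver in hbHep on the log2 scale (adjusted p = 0.000456, limma) and 1.05 ± 0.31 above YAP1on tumors (adjusted p = 0.0104). The latter was not called without mouse 2 (0.72, adjusted p = 0.0679) or with the first technical libraries alone (0.72, adjusted p = 0.0555). YAP1on tumors were called 0.84 ± 0.31 above FAH liver (adjusted p = 0.0268), and the call was lost without YAP1on tumor 1 or 3 or FAH liver 2 or 3 (adjusted p 0.0534 to 0.143) and with the replicate number as a block (0.83, adjusted p = 0.0549) or no filter on low values (adjusted p = 0.0538). Day 6 was 0.62 ± 0.31 from FAH liver (adjusted p = 0.0993), and 0.98 without FAH liver 1 (adjusted p = 0.0134).

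Osgin1 (ENSMUSG00000074063, chromosome 8, 119425882 to 119446257), an oxidative stress-induced growth inhibitor, had the highest tumor values at day 6. It was 1014, 1501, 1463 and 1354 in YAP1on tumors and 2273, 2438, 2098 and 2139 at day 6, without overlap. hbHep mice held 1339, 1696 and 2144, and FAH liver 2924, 1584 and 1654. The rise to day 6 was 0.76 ± 0.19 on the log2 scale (adjusted p = 0.00896, limma). hbHep was not called different from any group in the model of all samples. It was called −0.58 from day 6 after quantile normalization (adjusted p = 0.0108) and 0.51 above YAP1on tumors with the second technical libraries alone (adjusted p = 0.0414). Day 6 was 0.18 ± 0.21 from FAH liver (adjusted p = 0.467), and was called higher after quantile normalization (0.55, adjusted p = 0.0107) and without FAH liver 1 (0.45, adjusted p = 0.0472). YAP1on tumors were 0.58 ± 0.21 below FAH liver (log2 difference −0.58, adjusted p = 0.0218), which was not called without YAP1on tumor 1 (adjusted p = 0.0677), without FAH liver 1 (−0.30, adjusted p = 0.16) or after quantile normalization (−0.06, adjusted p = 0.783).

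From YAP1on to day 6, 3 of the 10 genes were called, all higher (Keap1, Gclm and Osgin1), where 23.6% of all genes were called either way and 12.8% higher. Without day 6 tumor 2 that count was 1. Between hbHep and YAP1on tumors 8 were higher and 0 lower, where 55.1% of all genes were called either way and 28.8% higher. The median difference of the members was 1.38 on the log2 scale, beside −0.02 over all genes tested. Between hbHep and day 6 the counts were also 8 and 0 (45.8% of genes called, 24.1% higher and 21.7% lower, median 1.32 over the members). Both comparisons share the hbHep samples. Against FAH liver 4 members were higher in hbHep and 0 lower (Slc7a11, Hmox1, Srxn1 and Nfe2l2), where 36.9% of genes were called, 19.9% higher and 17.1% lower. YAP1on tumors had 2 members above FAH liver and 6 below, where 67.9% of genes were called, 34.4% higher and 33.5% lower. Day 6 tumors had 1 above and 5 below, where 62.7% were called, 31.6% higher and 31.0% lower. These last comparisons share the FAH liver samples.

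**Figure D2:**
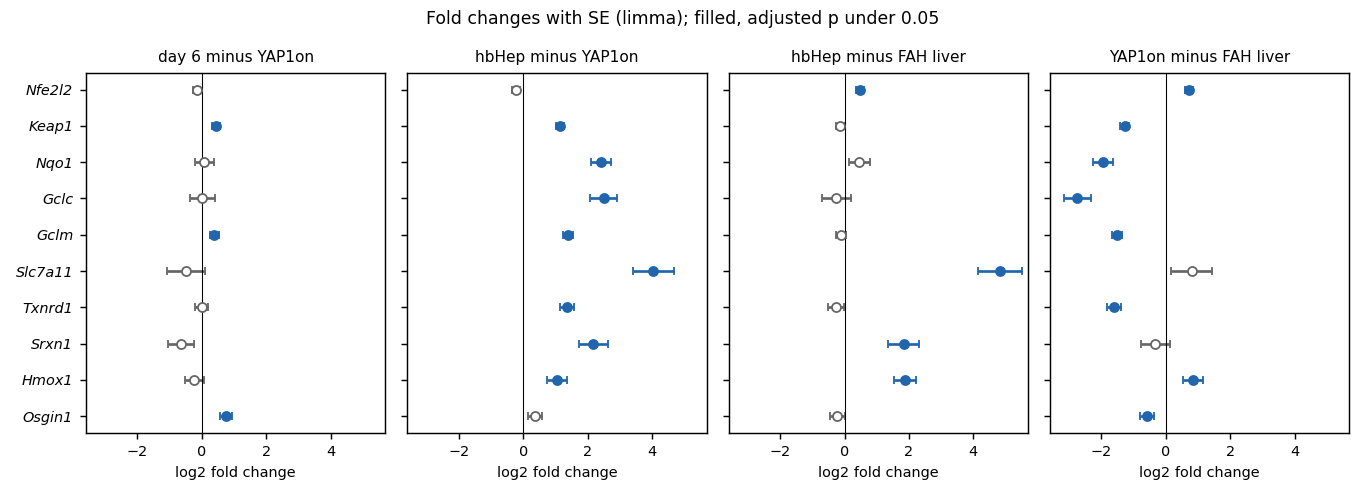
Log2 fold change of each gene with its limma SE in 4 comparisons, filled where the adjusted p was under 0.05. Against YAP1on tumors 8 genes are higher in hbHep, and against FAH liver 4 are, with Slc7a11 farthest from 0 at 4.04 and 4.84.

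The hbHep mice differed widely from each other in several of these genes. The range between the 3 mice exceeded 1 on the log2 scale in 6 of 10 members and in 18.9% of all genes tested. It was 4.23 for Slc7a11 (46th largest of 17953 genes), 2.49 for Gclc, 2.27 for Srxn1, 1.43 for Nqo1, 1.26 for Hmox1 and 1.04 for Txnrd1. The median range over all genes was 0.49. Nfe2l2 and Keap1 sat at the other end with 0.13 and 0.20, and Gclm (0.45) and Osgin1 (0.68) lay between.

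Mouse 2 was the highest of the 3 in 7 of 10 members, where it was highest in 35.6% of all genes. Mouse 3 was highest in the other 3 members (31.2% of genes) and mouse 1 in 0 (33.2%). The 2 technical libraries of mouse 2 gave 11130 and 14430 for Slc7a11, 10350 and 13960 for Gclc, 2618 and 3554 for Srxn1, and 4227 and 5504 for Nqo1. The second library was higher in all 10 members, by 0.24 to 0.88 on the log2 scale, which is far below the gap between mice for Slc7a11. Both libraries were rescaled by the same factor, so the difference in their totals (20.1 and 24.6 M) is part of this. The share of all genes higher in the second library was not counted. For Gclm (technical difference 0.63) and Hmox1 (0.88) the technical difference, with that of the totals included, exceeded the gap to the next mouse (0.07 and 0.75). Whether it would do so at equal totals was not tested. Relative to the FAH liver mean, Slc7a11 was 9.05-, 170- and 15.8-fold in mice 1, 2 and 3. Srxn1 was 2.13-, 10- and 2.07-fold, whereas Gclc was 0.382-, 2.15- and 0.634-fold. Mice 1 and 3 thus exceeded FAH liver in Slc7a11, Srxn1, Hmox1 and Nfe2l2, and lay below its mean in Nqo1, Gclc, Gclm, Txnrd1 and Keap1. The shortfall was small for Nqo1 (0.991- and 0.951-fold) and, in mouse 3, for Gclm (0.98-fold) and Keap1 (0.977-fold). The share of all genes in which hbHep mice lay above every FAH liver was not counted. Among FAH livers, replicate 1 was highest in 9 of 10 members, where it was highest in 49.1% of all genes.

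**Figure D3:**
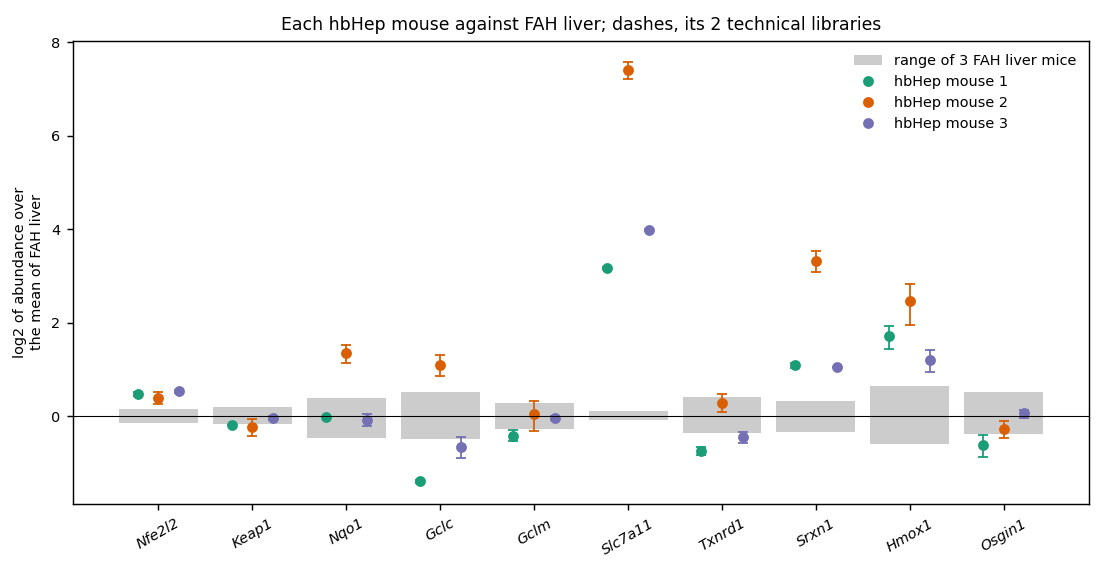
Log2 of the abundance of each hbHep mouse over the FAH liver mean (points), with dashes at its 2 technical libraries and a grey band for the range of the 3 FAH livers. Mouse 2 lies above both other mice in 7 genes, and all 3 mice lie above the band for Slc7a11, Srxn1, Hmox1 and Nfe2l2. The share of all genes with all 3 mice above such a band was not counted.

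The other genes of the pathway were 64 in 7 lists, all of which passed the filter. Between hbHep and YAP1on tumors 47 were higher and 3 lower, where 28.8% of all genes were higher and 26.3% lower. The 12 detoxifying enzymes and export pumps were all higher (median 2.27 on the log2 scale), led by Abcc4, an organic anion exporter (4.09 ± 0.28, adjusted p = 1.81e-08, limma). In glutathione synthesis and use 9 of 12 were higher, led by Ggt1, which splits extracellular glutathione (5.37 ± 0.58, adjusted p = 1.71e-06). Of 13 NRF2 control genes 6 were higher, with the adaptor Sqstm1, whose protein binds KEAP1, at 1.48 ± 0.20 (adjusted p = 2.07e-05), and 2 were lower, with the repressor Bach2 at −0.97 ± 0.22 (adjusted p = 0.00158). In thioredoxin and peroxiredoxin genes 6 of 10 were higher, led by Prdx6 (1.25), and Txnip, the thioredoxin inhibitor, was lower (−1.56 ± 0.19, adjusted p = 6.62e-06). NADPH supply had 5 of 6 higher, led by malic enzyme Me1 (2.52), haem and iron handling 6 of 8, led by the biliverdin reductase Blvrb (2.94), and superoxide and peroxide removal 3 of 3, led by catalase, Cat (2.48). Ggt1 was under 5 in every tumor (at most 4.861), so its difference depends on the pseudocount.

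The tumors lay mostly below FAH liver. Of the 64, 48 were lower in YAP1on tumors than in FAH liver and 4 higher, where 33.5% of all genes were lower and 34.4% higher. The leading genes on the log2 scale were the repressor Bach1 (−1.66), Ggt1 (−3.11), Prdx6 (−1.50), the isocitrate dehydrogenase Idh1 (−2.29), the ferritin light chain Ftl1 (−2.24), the glutathione transferase Gstp1 (−3.59) and Cat (−3.44), with Nfe2l3 (0.98) and the glutathione peroxidase Gpx2 (2.30) higher. Ftl1 and Gstp1 have near-identical copies in the genome, so their values are uncertain. At day 6, 46 were below FAH liver and 3 above (31.0 and 31.6% of all genes), led by Bach1 (−1.50), Ggt1 (−3.70), Prdx5 (−2.01), the pentose phosphate enzyme Taldo1 (−1.47), Blvrb (−1.96), the carbonyl reductase Cbr3 (−4.60) and Cat (−2.41), with Bach2 (0.61) and Gpx2 (1.32) higher. Between hbHep and day 6, 44 were higher and 2 lower (24.1 and 21.7% of all genes). Maff (1.53), Ggt1 (5.97), Prdx5 (1.77), Pgd (1.46), Blvrb (2.71), Cbr3 (5.58) and Cat (1.45) led the higher genes, and Bach2 (−1.48) and Cbs (−1.02) were lower. These comparisons share samples with each other.

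Against FAH liver 11 of 64 were higher in hbHep and 15 lower, a share near that of all genes, of which 19.9% were higher and 17.1% lower. Abcc4 was 2.22 ± 0.30 higher on the log2 scale (adjusted p = 3.89e-05, limma), Ggt1 2.27 ± 0.61 (adjusted p = 0.00929), Pgd of the pentose phosphate pathway 1.24 ± 0.27 (adjusted p = 0.00207), the small MAF gene Maff 0.70 ± 0.16 (adjusted p = 0.0033), the mitochondrial peroxiredoxin Prdx3 1.01 ± 0.19 (adjusted p = 0.000847) and Blvrb 0.75 ± 0.23 (adjusted p = 0.0164). Lower were Gstp1 (−1.62), the glutathione-degrading Chac1 (−1.79), Txnip (−1.41), Cat (−0.96), Bach2 (−0.87) and Idh1 (−0.65). The number called was 26 in all, and 16 when only hbHep and FAH liver were fitted. The share of all genes called in that smaller fit was not counted. At day 6, 17 of the 64 were above YAP1on tumors and 7 below, where 12.8% of all genes were above and 10.8% below. Cat (1.03), Me1 (1.10), Nqo2 (1.01) the transsulfuration enzyme Cbs (1.24), the thioredoxin reductase Txnrd3 (0.74) and Nfe2l1, a relative of Nfe2l2 (0.62), rose, while Cbr3 (−2.21), Txnip (−1.21), Maff (−1.19) and Gpx2 (−0.98) fell. Cbr3 stood at 98.68, 41.69, 73.6 and 38.69 in YAP1on tumors and at 11.3, 12, 11.02 and 13.14 at day 6.

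In the hbHep mice 37 of the 64 were highest in mouse 2, against 14 in mouse 1 and 13 in mouse 3, where 35.6, 33.2 and 31.2% of all genes were. The share was 10 of 12 among detoxifying enzymes and export pumps and 8 of 12 in glutathione synthesis and use. It was 5 of 13 among NRF2 control genes, near the share of all genes. Ggt1 was 63.21, 680.8 and 187.9 in mice 1, 2 and 3, and Cbr3 was 248.7, 2233 and 413.8. Abcc4 was 6333, 21670 and 11100. Each of these was lowest in mouse 1 and highest in mouse 2. Slc3a2, the heavy chain that partners Slc7a11 in the cystine importer, was 1004, 2052 and 1077. Chac1 was 69.69, 70.25 and 33.35, so mouse 2 did not stand apart from mouse 1 in that gene.

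**Figure D4:**
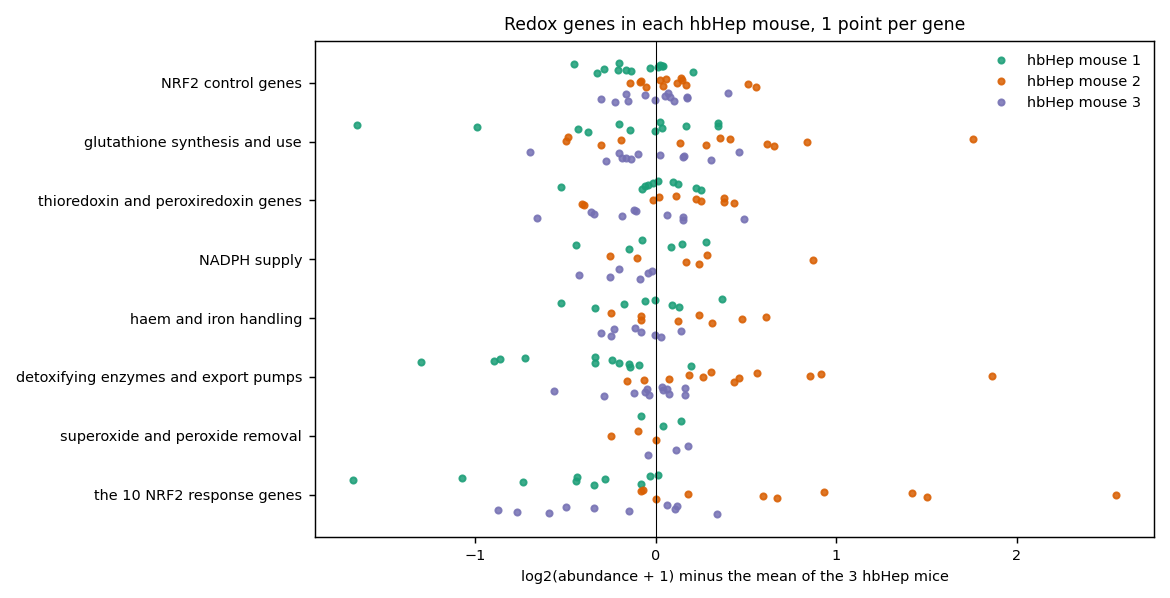
Log2(abundance + 1) of each gene minus its mean over the 3 hbHep mice, with 1 point per gene and mouse, for the 7 pathway lists and the 10 NRF2 response genes. Mouse 2 holds the highest value in 37 of 64 pathway genes and in 7 of the 10.

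The genes most like each member over the 14 samples were found by the root mean square difference of centred log2 profiles. Nqo1 was nearest to Htatip2 (0.23) and Gclc to the microsomal glutathione transferase Mgst2 (0.36). Srxn1 was nearest to the phosphomannomutase Pmm1 (0.38), Hmox1 to the mitochondrial malic enzyme Me2 (0.27), and Txnrd1 to the phosphoglycerate mutase Pgam1 (0.16). Keap1 was nearest to Map2k2 (0.07), Gclm to Psmd5 (0.13), Osgin1 to Tnk2 (0.18) and Nfe2l2 to Flot2 (0.10). This difference grows with the size of a gene's changes, so it cannot rank the members by how unusual their profiles are. Slc7a11, with the widest range, was nearest to the imprinted fetal liver gene Dlk1 (0.70) and the monoamine oxidase Maoa (0.72). Dlk1 was 12.73, 186.3 and 20.87 in hbHep mice 1, 2 and 3, and at most 5.019 in any other sample. Maoa was 5807, 19510 and 3487 in those mice and 758.8, 578.1 and 527.9 in FAH liver. Both were chosen for their likeness to Slc7a11, so their order among the mice is no separate result, and Dlk1 passed the filter on low values only through hbHep. Within the set, Nqo1 and Gclc (0.45), and Keap1 and Gclm (0.19), were each other's nearest members. These samples share tissue and depth, so likeness is a description.

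At the starts of the 8 members with one, the authors' ATAC intervals lay within 500 bases in all 5 libraries, where 65.2% of 17492 protein-coding genes had one in YAP1on, 66.0% at day 14, 64.5% at day 33, 65.1% at day 64 and 64.8% in liver. The YAP1on list is of another kind, with a median interval width of 21 bases and none wider than 162, beside medians of 61 to 72 and widths up to 800 in the other lists, so it was not compared. With 1 library each, differences have no replicate check. Nfe2l2 was widely covered throughout, with 839, 777, 789 and 710 of the bases around its start at days 14, 33 and 64 and in liver. Osgin1 had 739, 739, 710 and 585, and Keap1 581, 635, 698 and 587. Of the Txnrd1 starts, the first held no interval in any library, and the start printed above was covered over 523, 744, 639 and 646 bases. Its remaining start (82860341) was covered over 777, 564, 594 and 579 bases, highest at day 14, where the printed start was lowest.

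Slc7a11 was the member whose start differed most. Its covered bases within 500 of the start were 116 at day 14, 336 at day 33 and 607 at day 64, against 21 in liver. The medians of all genes in these lists were 488, 467, 446 and 363. The gain of 491 bases from day 14 to day 64 ranked 27th of 17492 genes, and the excess of 586 over liver ranked 23rd. This was limited to the start window. Over the whole span Slc7a11 covered 3.59, 5.42, 9.19 and 2.06 bases per kb in the same order, below the medians of all genes. There its gain from day 14 ranked 2256th of 21900 genes and its excess over liver 9513th. The start used (50443613) lies inside that span, not at its end. An interval from 87 bases before to 25 after the start at day 33 covered both TGATGCAA matches of the promoter printed above. At day 64 an interval from 62 before to 15 after covered the nearer match and part of the other, and at day 14 and in liver no interval reached either. Srxn1 (608, 691, 544 and 631) and Gclm (532, 607, 467 and 476) showed no such order, and Nqo1 had 657, 538 and 569 against 353 in liver.

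Gclc, whose start was not in the promoter table, was read over its whole span. It held 44 intervals at day 14, 57 at day 33, 231 at day 64 and 50 in liver, which covered 69.9, 94.4, 463 and 73.6 bases per kb. The medians over all genes were 30.8, 24.7, 24.5 and 17.0 bases per kb. The gain from day 14 to day 64 ranked 36th of 21900 genes and the excess of day 64 over liver 81st. The next member by gain from day 14, Osgin1, ranked 489th (688 to 735 bases per kb). By excess of day 64 over liver the next members were Nfe2l2, 221st (470 against 197 bases per kb), and Osgin1, 750th. Hmox1 covered 83.4, 55.6, 86.2 and 46.2 bases per kb. The animals of the ATAC libraries are not matched to the RNA mice by the labels, so the day 64 values and those of hbHep mouse 2 stand side by side only.

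**Figure D5:**
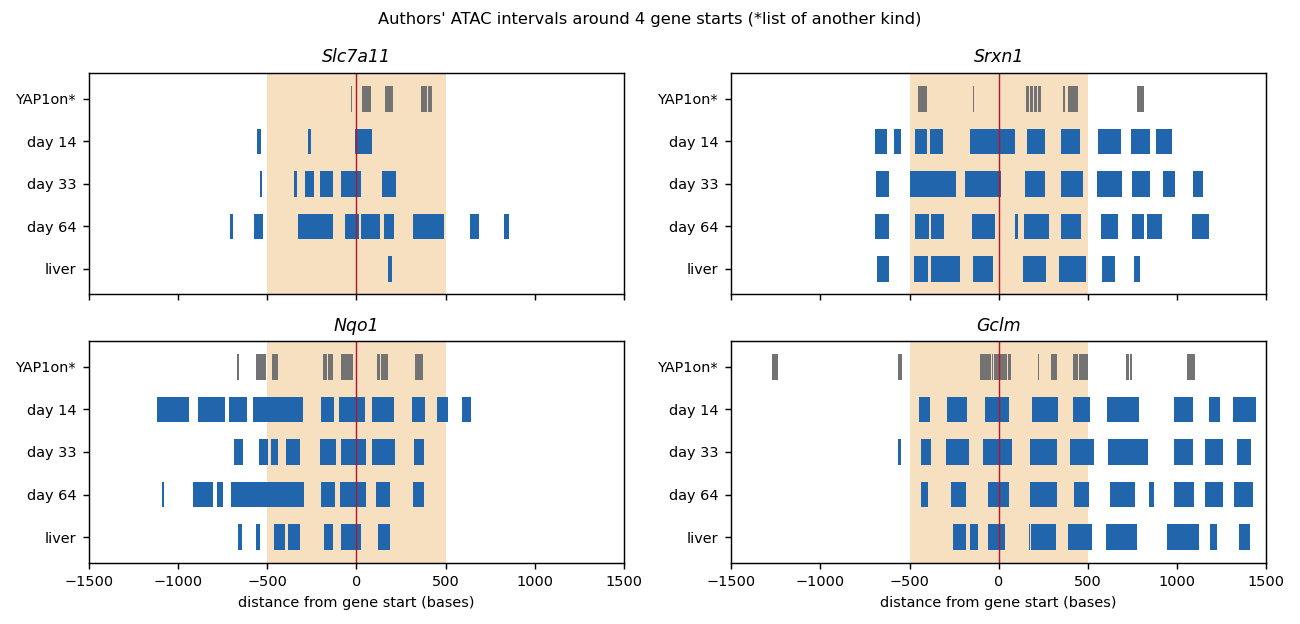
The authors' ATAC intervals (bars) within 1500 bases of the starts of Slc7a11, Srxn1, Nqo1 and Gclm, by distance from the start in bases, in 5 libraries, with the window of 500 bases shaded. Slc7a11 has 7 intervals in the window at day 64 and 1 in liver, while the other genes have intervals across the window in every library.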

How the data were processed

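RNA was measured in 17 libraries of 14 samples and open chromatin in 5. The RNA values are a signal per gene that the authors deposited. The submitters' processing notes name kallisto 0.45.0, bcl2fastq, sleuth and the build GRCm38.p6. The unit, scaled reads per base, was read from the name and values of the table. kallisto estimates how reads divide among similar transcripts, so values are not whole counts and no count model was used. ATAC interval positions, which carry no other unit, were deposited by the authors on mm10. The same notes name Picard, SAMtools, BWA, cutadapt and bcl2fastq. The program that made the intervals is not given in the sources used here. mm10 and GRCm38.p6 share chromosome coordinates.

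Both technical libraries of an hbHep mouse were averaged to 1 sample. Median-of-ratios factors (0.9632 to 1.1) rescaled the values, which were kept at 10 or more in at least 3 samples, which left 17953 genes. log2(abundance + 1) was tested with limma 3.58.1 (a trend in eBayes, R 4.3.3), with all 4 groups fitted together and Benjamini-Hochberg adjustment over all genes. Errors after ± are limma's SE unless SD is named. This scale understates changes of low genes. The fit was tested on simulated data. p-values measure the spread between samples, which in the tumor groups come from 1 mouse each. The 4 groups share 1 estimate of that spread for each gene. The p-values of hbHep against FAH liver thus also rest on the spread among tumors within a mouse. Intervals were intersected with windows of 500 bases either side of RefSeq starts and with gene spans, in Python 3.11.15.

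The members, lists and markers were chosen with earlier results of these data known. The text names all 10 members, and in each pathway list and comparison the called gene with the largest change in each direction. Slc3a2 and Chac1 in the hbHep mice, and Ggt1, Cbr3 and Abcc4 there, were named after their values were seen. For likeness the nearest genes by profile are named. The 8 marker lists held 44 genes. Sums of cholangiocyte markers were 28620 to 37630 in YAP1on tumors, 2546 to 7424 at day 6, 993 to 1403 in hbHep, and in FAH liver 635.2 to 716.8. Most of each sum was Spp1 (27390 to 35780 in YAP1on tumors). Krt7, Epcam and Sox9 were also higher in every YAP1on tumor than in every hbHep liver. Krt19 overlapped between those groups (20.05 to 66.25 against 22.24 to 47.26). Endothelial markers summed to 2854 to 7083 over all groups, those of stellate cells and fibroblasts to 2178 to 8958, those of T, NK and B cells to 61.77 to 543.7, those of neutrophils to 34.74 to 1680 and those of red blood cell precursors to 4942 to 35890. Alternatives were other pseudocounts, filters, scalings, single technical libraries, a replicate block, fewer groups, left-out samples, and other windows, overlaps and widths for intervals.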

Additional observations from a re-analysis of the deposited data

Results flagged for a closer look

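Among 20 groups of 4 tumors examined (10 genes in each tumor group), 1 held a sample far from the others, where chance gives about 1 in 20. Gclm in day 6 tumor 3 was 2811, below 3037, 3006 and 3017 in the other day 6 tumors, and its gap to the nearest was 0.86 of the whole range. Without that tumor the rise of Gclm from YAP1on to day 6 was 0.42 on the log2 scale and not called (adjusted p = 0.0674, limma).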

How the results depend on the processing

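Of 1380 values (60 member differences under 23 other settings), 1315 kept direction and side of the threshold, 27 lost a call, 17 gained one and 21 changed sign. No called difference changed sign, and 6 of 37 called ones lost their call under some setting. Sign changes were all among uncalled differences. With values as deposited, Nfe2l2 in hbHep minus day 6 was 0.03. After quantile normalization hbHep minus FAH liver was 0.08 for Keap1, 0.13 for Gclc, 0.29 for Gclm and 0.23 for Txnrd1, Gclc at day 6 minus YAP1on was −0.07, and Slc7a11 at day 6 minus FAH liver −0.09. It also shrank called differences from FAH liver, for YAP1on and day 6 tumors in turn, to −0.72 and −0.42 (Keap1), −0.62 and −0.47 (Gclm) and −0.55 and −0.86 (Txnrd1), all still called. The cause was not tested.

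Leaving out 1 sample at a time, the members called ranged from 1 to 4 between day 6 and YAP1on, 7 to 9 between hbHep and YAP1on, 8 to 8 between hbHep and day 6, 4 to 5 between hbHep and FAH liver, 6 to 9 between YAP1on and FAH liver and 6 to 8 between day 6 and FAH liver. Uncalled differences that crossed 0 ranged from −0.05 to 0.25 for Nqo1, −0.10 to 0.17 for Gclc and −0.07 to 0.08 for Txnrd1 at day 6 minus YAP1on, and from −0.96 to 0.29 for Gclc, −0.25 to 0.03 for Gclm and −0.39 to 0.06 for Osgin1 in hbHep minus FAH liver. The pathway genes called between hbHep and FAH liver were 26 in the model of all groups and 16 with those groups alone. The latter fit has fewer samples and takes its spread from those groups only, and the reason for the lower count was not tested. Without the share of all genes called in that fit, the lower count cannot be set against the background. At an overlap of at least 100 bases, 0 of 8 starts had a YAP1on interval, since few of those intervals are that wide, and with intervals at least 300 bases wide 0 did in YAP1on, day 14, day 64 and liver and 1 at day 33. Same-numbered samples share only a number (correlations of their deviations −0.23 to 0.187). With the replicate number as a block, members called were 2, 8, 8, 4, 7 and 6 in the order of the leave-out ranges above, and Gclm at day 6 lost its call (adjusted p = 0.0924, limma).

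Depth is known only in relative terms, each tumor group is 1 mouse, and the hbHep livers have 3 animals of which 1 stands apart. Technical libraries of that animal differ by up to 0.88 on the log2 scale in a member, with the difference in their totals included.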
